A study of Mus musculus with 13 samples.

Results

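The guanylate-binding proteins (GBP) and the immunity-related GTPases (IRG) are families of interferon-inducible GTPases. The mRNA levels of 10 of these genes, Gbp2, Gbp3, Gbp6, Gbp7, Gbp9, Igtp, Irgm1, Irgm2, Iigp1 and Ifi47, were examined in C2C12 myotubes, the multinucleated cells that form by fusion of a mouse myoblast line. The genes were chosen by symbol, and 9 of the 10 were among the 16382 genes of the count tables used here. These tables end partway through the Ensembl gene numbers, and 2240 of 21770 annotated protein-coding genes, Gbp6 among them, have a higher number than the last entry. Genes outside the tables were not analysed here, and nothing about their expression follows from this. On day 8 of differentiation the myotubes received 10 µM palmitoylethanolamide (PEA), an endogenous fatty acid amide, or the DMSO vehicle alone (CON), and RNA was harvested 24 h later. RNA-seq data of 12 libraries were used, 6 CON and 6 PEA. The study's methods describe duplicate wells, as technical replicates, in 3 repeats of the experiment. Which libraries came from wells of 1 repeat is not in the labels, so the tests treat the 6 libraries of a group as independent. Their p-values measure the spread between libraries, which is in part technical, and can be too small. All cells came from 1 line in culture.

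Interferons bind receptors at the cell surface and activate the kinases JAK1, JAK2 and TYK2, which phosphorylate STAT transcription factors. STAT dimers bind the gamma-activated sequence (GAS), and STAT2 with IRF9, as well as IRF1, bind the interferon-stimulated response element (ISRE) in the promoters of GBP and IRG genes. GBPs are large dynamin-like GTPases that coat the membranes of bacteria and of the vacuoles in which bacteria and parasites live. IRG proteins are smaller, and they are divided by their phosphate-binding loop: effectors such as Iigp1 and Ifi47 carry a lysine there and are loaded onto foreign vacuoles, while the regulators Irgm1, Irgm2 and Igtp carry a methionine and guard the cell's own membranes.

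The families sit in clusters of the mouse genome (GRCm39, GENCODE annotation). Gbp7 (chr3:142236044-142255910), Gbp3 (chr3:142265731-142278979) and Gbp2 (chr3:142326349-142343779) lie on the + strand of chromosome 3. Gbp9 (chr5:105224332-105287452) lies on the - strand of chromosome 5. Irgm1 (chr11:48752795-48763164, - strand), Ifi47 (chr11:48967412-48987813, + strand), Igtp (chr11:58089840-58098417, + strand) and Irgm2 (chr11:58090444-58113615, + strand) are on chromosome 11. The coding sequence of the phosphate-binding loop is shown because it is where the effector and regulator classes part. Each run of 24 bases is coding exon, in the direction of the gene, and the capitals mark the codon that is read as lysine (AAA or AAG) or methionine (ATG).
Gbp2 (chr3:142329587-142329610): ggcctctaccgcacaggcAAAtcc
Gbp3 (chr3:142267639-142267662): ggtttatatcgtacagggAAGtcc
Gbp7 (chr3:142240416-142240439): ggactataccgtacgggaAAAtcc
Gbp9 (chr5:105253564-105253587): ggattgtaccgtacagggAAGtcc
Ifi47 (chr11:48986475-48986498): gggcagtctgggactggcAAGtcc
Igtp (chr11:58097101-58097124): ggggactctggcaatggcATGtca
Irgm1 (chr11:48757588-48757611): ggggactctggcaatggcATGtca
Irgm2 (chr11:58110521-58110544): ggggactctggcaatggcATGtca
The runs of Igtp, Irgm1 and Irgm2 had 0 differences over these 24 bases. Flanking sequence was not compared. Estimated counts that are not whole numbers (by more than 0.01) can arise where reads are divided between genes. They occurred in 9 of 12 libraries for Igtp and Irgm2, 8 for Gbp7, 6 for Gbp3 and Iigp1, 5 for Irgm1, and 0 for Gbp2, Gbp9 and Ifi47. The annotated exons of Igtp and Irgm2 share 162 bases on the same strand, those of Gbp9 share 107 bases with Gbp4 and with Gbp8, and the strand setting of the counting is not given in the sources used here.

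Libraries held between 12354845 and 50397444 estimated counts, with CON 1 the deepest. The summed normalized counts of 11 myotube markers lay between 79540 and 125685 in CON and between 80693 and 96851 in PEA, with all 11 detected and Acta1 the most abundant. By edgeR, 10 of the 11 had lower and 1 higher means in PEA, and 2 were called lower, Myh8, a perinatal myosin heavy chain, by a log2 fold change of -0.74 (adjusted p = 0.0474) and the fast troponin Tnnt3 by -0.33 (adjusted p = 0.0184), while 4.74% of all genes tested were called lower. Of 9 leukocyte and macrophage markers 6 were in the tables, with sums of 604 to 822 in CON and 693 to 892 in PEA. Most of that sum was Cd14, at 554 ± 63.7 and 657 ± 80.0 (SD, n = 6 each), while Ptprc, the pan-leukocyte marker CD45, had a median of 0 in both groups and a maximum of 5.06. The summed normalized counts of 4 endothelial markers did not exceed 28.5 in any library. In RNA from whole wells, a smaller number of expressing cells and less RNA per cell cannot be told apart.

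GBP and IRG mRNA was present in every library, including all 6 vehicle libraries, at between 85 and 7523 estimated counts per gene. Levels were compared between genes as normalized counts per kilobase of annotated exon. In CON, Irgm1 was highest at 436 ± 189 (SD, n = 6), followed by Gbp2 at 343 ± 127, Gbp3 at 281 ± 160, Irgm2 at 231 ± 131, Iigp1 at 178 ± 96.9, Igtp at 149 ± 75.7, Ifi47 at 114 ± 60.0, Gbp7 at 75.5 ± 35.7 and Gbp9 at 16.4 ± 6.26. The larger SD of each neighbouring pair exceeded the step between their means, except from Gbp7 to Gbp9, but the SDs came from libraries that were high or low for all genes together: within a library each gene stood above the next in the order in 6 of 6 CON libraries. In PEA the order was Irgm1 at 697 ± 95.9, Gbp3 at 546 ± 115, Gbp2 at 464 ± 79.0, Irgm2 at 371 ± 65.0, Iigp1 at 299 ± 50.2, Igtp at 220 ± 28.2, Ifi47 at 150 ± 21.8, Gbp7 at 137 ± 28.2 and Gbp9 at 30.9 ± 3.79. Each step held in 6 of 6 PEA libraries except Ifi47 over Gbp7, which held in 5. Gbp2 stood above Gbp3 in all 6 CON and below it in all 6 PEA libraries on this scale. Whether their order changes at all depends on the exon lengths used, here 2561 bases for Gbp2 and 4248 for Gbp3 over all annotated isoforms, and other lengths could give 1 order in all libraries.

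Gbp3, Gbp7 and Gbp9 were upregulated by PEA, by 1.95-fold, 1.82-fold and 1.89-fold. All 9 genes had higher means in PEA, by log2 fold changes of 0.40 to 0.96 with a median of 0.69, against a median of 0.01 over the 13142 genes tested. By edgeR's quasi-likelihood test with Benjamini-Hochberg adjustment over all genes, 3 of 9 passed the threshold of 0.05, while 6.31% of all genes tested were called higher in PEA. At an unadjusted p below 0.05 there were 8 of 9, against 14.3% of all genes. None of the 9 had groups free of overlap, which 2.53% of all genes had in this direction. The GBP members had a median log2 fold change of 0.89 over 4 genes and the IRG members 0.68 over 5. The number of members called was 9 without CON 2, where 9.32% of all genes were called higher, 2 without CON 1, CON 3 or PEA 3, and 1 without CON 5, CON 6, PEA 2, PEA 4, PEA 5 or PEA 6, where these shares lay between 3.72% and 5.77%.

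**Figure D1:**
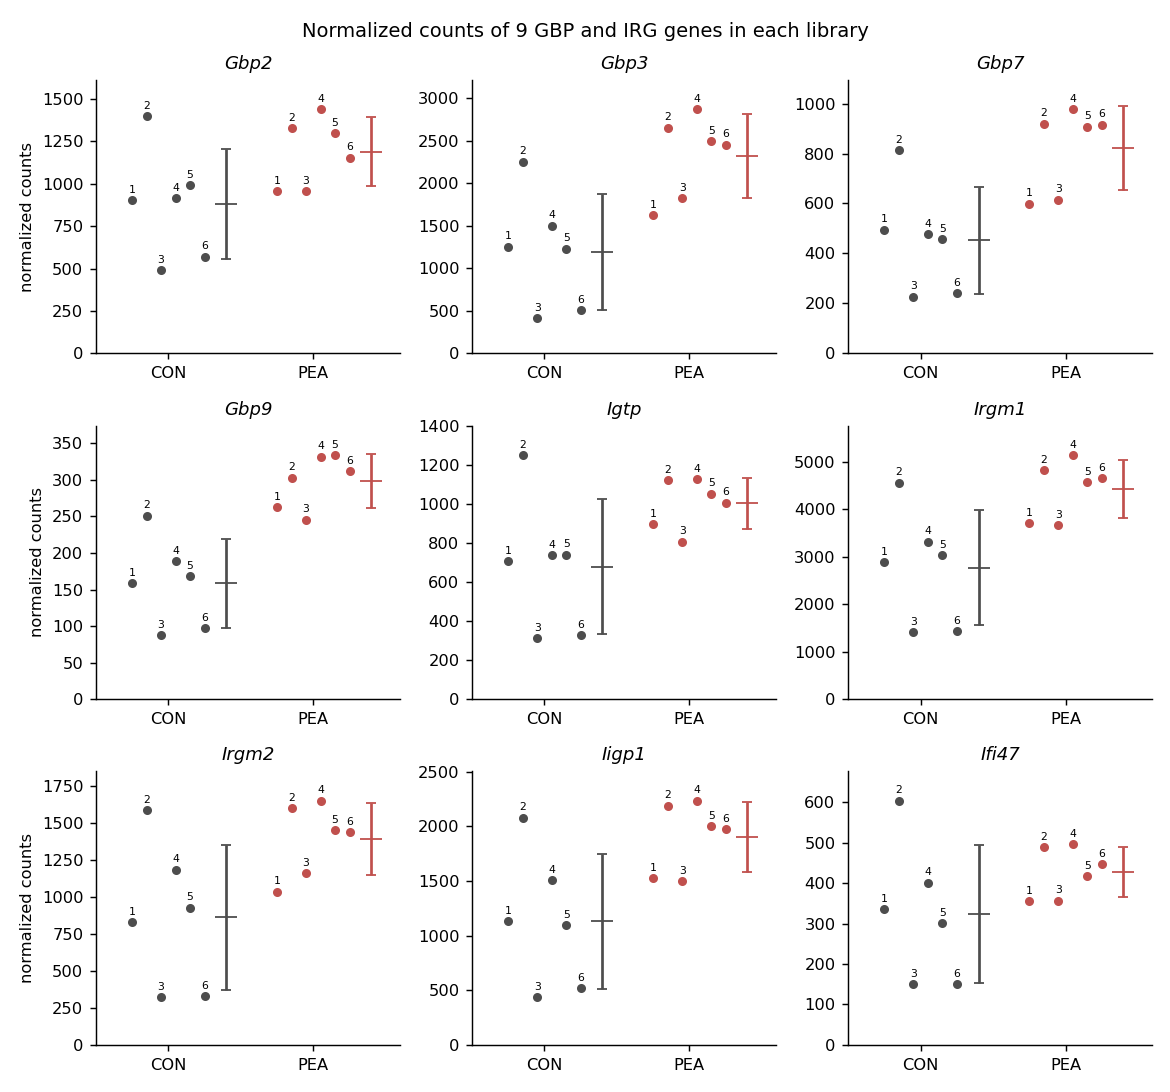
Normalized counts (linear axes from 0) of each GBP and IRG gene in the 6 CON (grey) and 6 PEA (red) libraries, numbered by replicate, with the mean ± SD beside each group. CON 3 and CON 6 lie lowest in every panel and CON 2 lies within or above the PEA values, so that no panel separates the groups.

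Gbp9 had the smallest p-value of the 9. Its normalized counts in CON 1 to 6 were 159, 251, 87.4, 189, 168 and 97.6, and in PEA 1 to 6 they were 263, 303, 246, 332, 334 and 313. All PEA libraries except PEA 3 lay above the highest CON library, CON 2. The log2 fold change was 0.92 ± 0.194 (SE), with an edgeR adjusted p of 0.0078. Gbp9 was called in all 23 alternative settings of the analysis, and its log2 fold change lay between 0.65 and 1.17 in them.

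Gbp7, described in macrophages as bringing NADPH oxidase to bacterial vacuoles, gave normalized counts of 496, 815, 227, 477, 458 and 242 in CON 1 to 6. In PEA 1 to 6 it gave 600, 920, 615, 978, 908 and 915, so that 5 CON libraries lay below the lowest PEA library and CON 2 lay within the PEA range. This gave a log2 fold change of 0.87 ± 0.237 (SE), with an edgeR adjusted p of 0.0282. Gbp7 was called in 16 of the 23 alternatives.

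Gbp3 had the largest difference. In CON 1 to 6 its normalized counts were 1253, 2254, 415, 1502, 1231 and 503. In PEA 1 to 6 they were 1625, 2653, 1824, 2872, 2493 and 2453, with 4 of the 6 above CON 2. Gbp3 thus had a log2 fold change of 0.96 ± 0.297 (SE), with an edgeR adjusted p of 0.0457, and Gbp3 was called in 13 of the 23 alternatives. It was not called when DESeq2, the tool the study used, was run here on the rounded counts (DESeq2 adjusted p = 0.07). The study's own result for Gbp3 is not given in its text. The CON libraries differed from each other by more than the groups did: the highest was 5.43 times the lowest, against 1.77 times in PEA.

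Gbp2, which targets vacuoles of parasites and bacteria and is prenylated at its end, did not pass the threshold. Its normalized counts were 904, 1398, 492, 915, 994 and 570 in CON 1 to 6, and 955, 1328, 957, 1440, 1300 and 1154 in PEA 1 to 6. CON 2 exceeded 5 of the 6 PEA libraries. Its difference on the log2 scale was 0.44 ± 0.191 (SE), with an edgeR adjusted p of 0.142.

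The IRG regulators came next. Irgm1, which in mice is needed for resistance to intracellular bacteria and for autophagy, had normalized counts of 2880, 4561, 1408, 3318, 3042 and 1433 in CON 1 to 6, and 3706, 4822, 3662, 5149, 4569 and 4662 in PEA 1 to 6. Here 4 PEA libraries lay above CON 2 and the other CON libraries lay below all PEA libraries. The log2 fold change was 0.68 ± 0.22 (SE), with an edgeR adjusted p of 0.0563.

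Irgm2 had normalized counts of 831, 1583, 325, 1183, 926 and 330 in CON 1 to 6, and 1034, 1597, 1159, 1649, 1450 and 1438 in PEA 1 to 6. CON 2 and CON 4 lay within the PEA range. The log2 fold change was 0.69 ± 0.291 (SE), with an edgeR adjusted p of 0.131. Igtp, the third regulator (also called Irgm3), gave 705, 1252, 311, 738, 741 and 327 in CON 1 to 6, and 897, 1124, 807, 1128, 1053 and 1007 in PEA 1 to 6. CON 2 was the highest of all 12 libraries for Igtp, and the other 5 CON libraries lay below all PEA libraries. The log2 fold change was 0.57 ± 0.244 (SE), with an edgeR adjusted p of 0.139.

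The effectors bracketed the IRG members. Iigp1 (IRGA6, on chromosome 18), which loads onto parasite vacuoles, had normalized counts of 1136, 2081, 438, 1509, 1099 and 520 in CON 1 to 6, and 1529, 2191, 1498, 2236, 1999 and 1973 in PEA 1 to 6. CON 2 and CON 4 lay within the PEA range. For Iigp1 the log2 fold change was 0.76 ± 0.273 (SE), with an edgeR adjusted p of 0.0812. Ifi47 (IRGD) gave 336, 604, 150, 401, 302 and 150 in CON 1 to 6, and 356, 490, 357, 497, 418 and 447 in PEA 1 to 6. No PEA library reached CON 2. With a log2 fold change of 0.40 ± 0.254 (SE) and an edgeR adjusted p of 0.327, Ifi47 had the smallest difference of the 9 genes.

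The 9 genes varied together from library to library within each treatment. CON 3 was the lowest of the 12 libraries for 9 of 9 genes, and CON 3 and CON 6 were the lowest pair for 9 of 9. Over all genes tested, 17.7% were lowest in CON 3 and 8.47% had this lowest pair. CON 2 was the highest CON library for 9 of 9, compared with 21.6% of all genes. On a log2 CPM scale centred on each gene's mean, the 9 genes averaged -1.39 in CON 3 and -1.26 in CON 6. The average was -0.22 in CON 1, -0.01 in CON 4 and -0.20 in CON 5, and 0.56 in CON 2. The PEA libraries ranged from 0.11 in PEA 1 and 0.12 in PEA 3 to 0.66 in PEA 4. The mean over the genes was 5.05 log2 CPM in CON and 5.89 in PEA, a difference of 0.84 with a pooled SD over libraries of 0.56. With levels centred within each group, Pearson's r between members over the 12 libraries lay between 0.95 and 0.99 in the 36 pairs. Over the 6 CON libraries alone it lay between 0.965 and 0.997, with a median of 0.989. Over the 6 PEA libraries it lay between 0.813 and 0.996, with a median of 0.955. These values are a description. The genes of a library share its depth, divided out on the CPM scale, and some libraries share a repeat of the experiment.

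**Figure D2:**
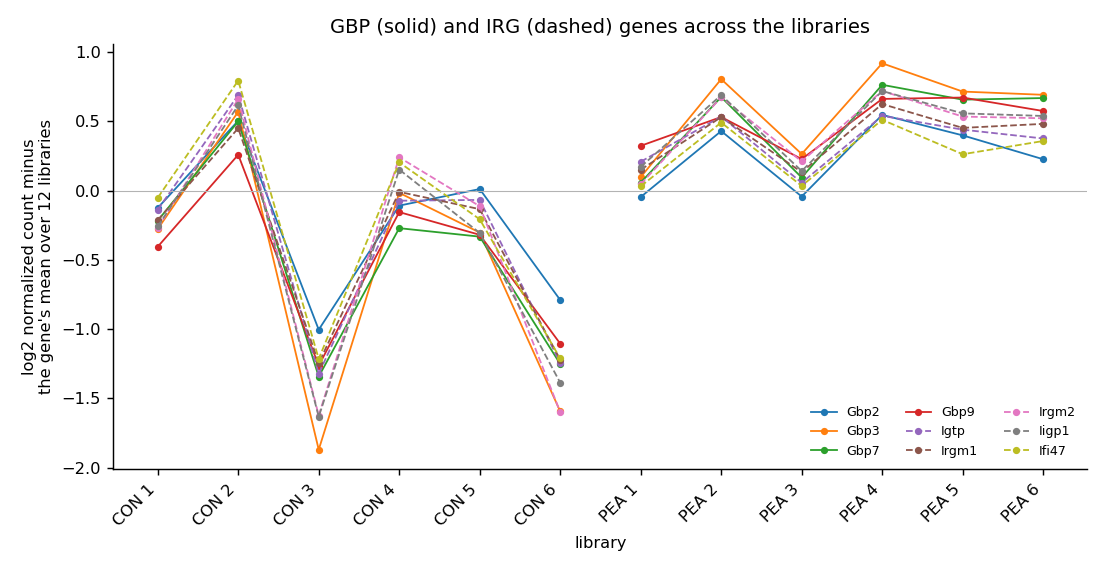
Log2 normalized count of each gene minus its mean over the 12 libraries, for GBP (solid lines) and IRG genes (dashed lines), by library. The lines move together, lowest in CON 3 and CON 6 and highest in CON 2 within the vehicle group, with a narrower range in PEA.

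The spread of the members was much wider in CON than in PEA. The coefficient of variation of normalized counts was 37.1% to 56.9% in CON, with a median of 50.8%, and in PEA 12.3% in Gbp9 to 20.5% in Gbp7, slightly more in Gbp3, with a median of 16.8%. Genes at or above the level of the lowest member had a median of 8.42% in CON (10047 genes) and 6.41% in PEA (8823 genes). The highest library was between 2.85 and 5.43 times the lowest in CON and between 1.36 and 1.77 times in PEA. Other measures were set beside this pattern. CON 3 and CON 6 were of ordinary depth, with 18780536 and 19083862 estimated counts. The summed normalized counts of the 4 proliferating myoblast markers, all detected, lay between 3434 and 4305 in PEA, at 3419 in CON 2, and between 1528 and 2219 in the other CON libraries. CON 3 had the lowest value of this sum. Most of this sum was Top2a, a DNA topoisomerase, and Mki67, both genes of dividing cells. Top2a rose by 0.95 ± 0.143 on the log2 scale (SE, edgeR adjusted p = 0.000937) and Mki67 by 1.02 ± 0.245 (SE, edgeR adjusted p = 0.0149). The myoblast transcription factors Pax7 and Myf5 had log2 fold changes of -0.02 (edgeR adjusted p = 0.947) and 0.09 (edgeR adjusted p = 0.58), neither past the threshold. The myotube marker sum was lowest in CON 3 at 79540. It was 95369 in CON 4, 96051 in CON 6, 114700 in CON 1, 123071 in CON 2 and 125685 in CON 5. With levels centred within groups, Pearson's r with the mean of the members over the 12 libraries was 0.77 for Myh3, 0.74 for Mymk, 0.71 for Myh1 and 0.68 for Myog, the highest of the 11 myotube markers, and -0.16 for Myh8, the lowest. It was 0.83 for Top2a, 0.68 for Mki67, 0.45 for Pax7 and 0.05 for Myf5. The part of cell state in the GBP and IRG differences was not tested.

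The size of the PEA difference depended on which vehicle libraries were kept. Without CON 3 and CON 6, the mean difference over the 9 genes was 0.39 log2 units and 2 of 9 passed the threshold, as did 3.53% of all genes in this direction, Gbp3 with a log2 fold change of 0.58 (edgeR adjusted p = 0.0456) and Gbp9 with 0.65 (edgeR adjusted p = 0.00859). Ifi47 then stood at 0.06 ± 0.155 (SE). Without CON 1, the deepest library, and CON 2 the mean difference was 1.13 and 9 of 9 passed, against 8.97% of all genes. Without CON 2, CON 3 and CON 6, a choice made after the data had been seen, the 3 remaining vehicle libraries gave a mean difference of 0.56, and 7 of 9 passed, all but Gbp2 and Ifi47, against 5.42% of all genes. Without CON 2 alone, the highest CON library for all 9 genes, 5 of the 9 had groups free of overlap (Gbp3, Gbp7, Gbp9, Igtp and Irgm1). None had with all libraries kept. Of all genes, 5.52% were free of overlap in this direction without CON 2, against 2.53% with all libraries kept.

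**Figure D3:**
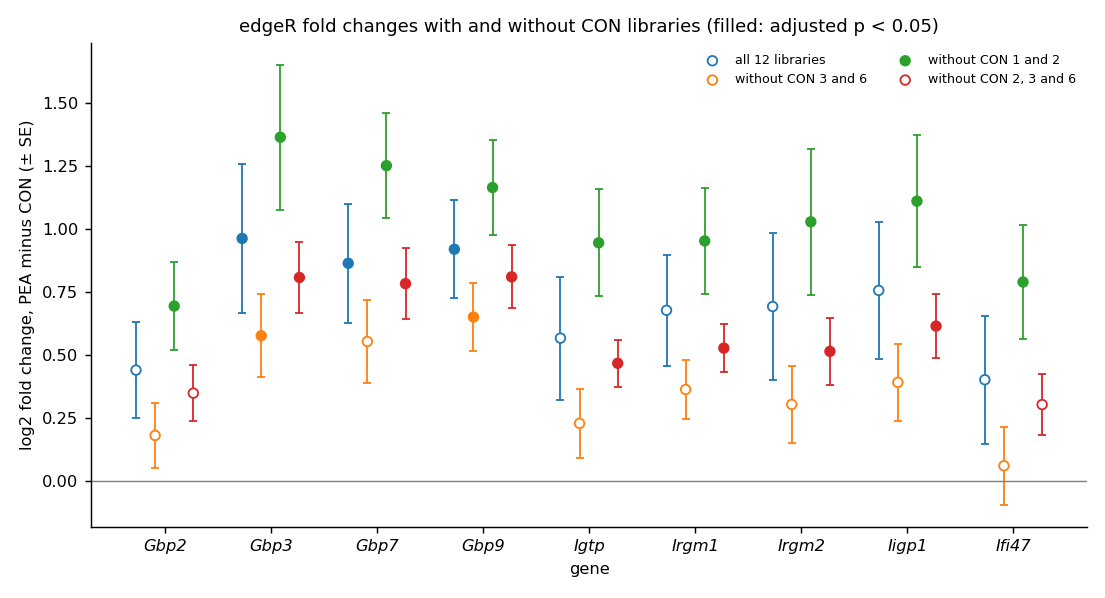
Log2 fold change, PEA minus CON, with its SE, of each gene by edgeR with all 12 libraries and without 3 sets of CON libraries. Filled points have an adjusted p below 0.05. Every estimate is above 0, from 0.06 for Ifi47 without CON 3 and CON 6 to 1.37 for Gbp3 without CON 1 and CON 2.

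Ratios between members were compared next, since a factor that multiplies both genes of a pair alike cancels in them. Ratios were chosen as a measure after the levels had been seen and are given as a description. In 7 of the 36 pairs the ratio was free of overlap between CON and PEA, while of all 85877065 pairs of the 13106 tested genes with counts in every library 4.00% were, in either direction. The pairs share genes and are not independent of each other. Gbp3 was the relatively higher gene in PEA in 3 of the 7, against Gbp2, Ifi47 and Irgm2. Gbp7 was so against Gbp2 and Ifi47, Gbp9 against Gbp2, and Iigp1 against Ifi47. The ratio of Gbp9 to Gbp7 differed by 0.02 on the log2 scale, against SDs of 0.16 in CON and in PEA.

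Not all ratios were free of the library level within CON. That of Gbp3 to Gbp2 was 0.845 and 0.882 in CON 3 and CON 6, the libraries lowest in all members, 1.39 in CON 1, 1.24 in CON 5, and 1.61 and 1.64 in CON 2 and CON 4. In PEA it lay between 1.70 and 2.13, so that the groups were free of overlap by a narrow margin. The ratio of Gbp9 to Ifi47 ran the other way, at 0.416 in CON 2 and 0.649 in CON 6, and the groups overlapped. The part of the level in the ratio differences was not tested.

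Gbp2, Gbp9 and Ifi47 had estimated counts that were whole numbers in every library. Of the pairs among these genes, only that of Gbp9 to Gbp2 was free of overlap between the groups. Gbp9 and Gbp2 had log2 fold changes of 0.92 and 0.44, near the largest and the smallest of the members. The separation of this ratio thus restates that choice in part. The ratio of Gbp9 to Gbp2 was 0.175, 0.180, 0.178, 0.206, 0.169 and 0.171 in CON 1 to 6, and Gbp2 itself differed 2.85-fold among these libraries. In PEA 1 to 6 it was 0.275, 0.228, 0.257, 0.231, 0.257 and 0.271. Every PEA library lay above every CON library. The levels of both genes in CON 2 lay among those of PEA, and the part of the level in this difference was not tested. The means were 0.180 ± 0.0134 and 0.253 ± 0.0197 (SD, n = 6 each). Gbp3 and Ifi47 had the largest and the smallest fold change of the members, so the separation of their ratio largely restates that choice. The ratio was 3.73, 3.73, 2.77, 3.74, 4.08 and 3.35 in CON 1 to 6, and 4.56, 5.42, 5.11, 5.78, 5.96 and 5.49 in PEA 1 to 6. The pairs free of overlap numbered between 7 and 12 when each library was left out in turn. There were 11 without CON 4, where 5.40% of all pairs were free of overlap, and 12 without PEA 1, where 5.51% were. Without CON 2 there were 7, against 8.91% of all pairs, and without CON 1 and CON 2 also 7, against 11.6%. Without CON 3 and CON 6 there were 10, against 6.23%, and without CON 2, CON 3 and CON 6 also 10, against 13.1%.

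**Figure D4:**
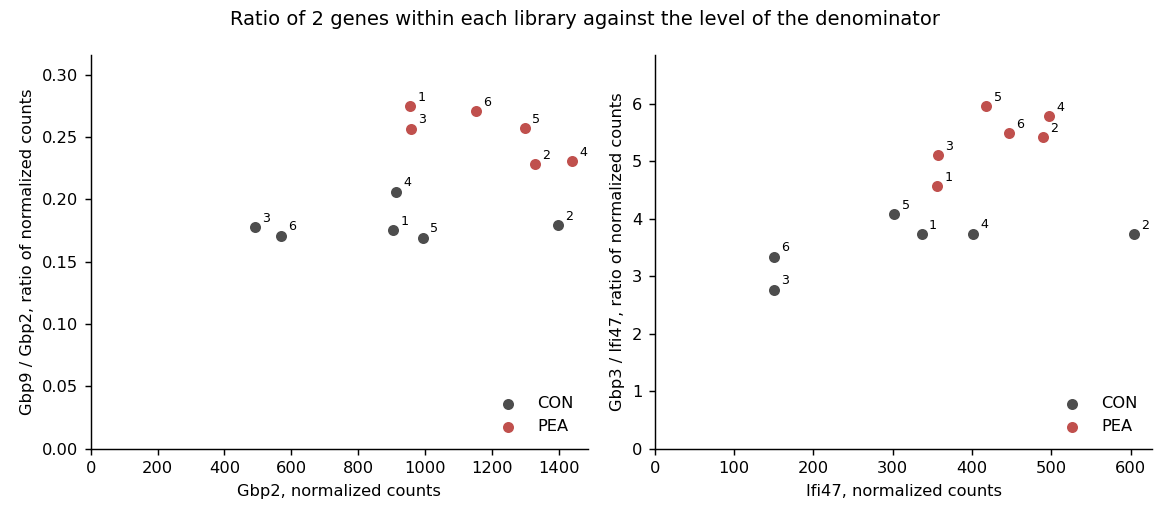
Ratio of Gbp9 to Gbp2 (left) and of Gbp3 to Ifi47 (right) in each library against the normalized count of the denominator, CON in grey and PEA in red, numbered by replicate, axes from 0. The PEA ratios (0.228 to 0.275 and 4.56 to 5.96) lie above all CON ratios (0.169 to 0.206 and 2.77 to 4.08). Only CON 2 and CON 5 for Gbp2 and CON 4 for Ifi47 lie within the PEA range of the denominator, and CON 3 and CON 6 lie far below it.

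Promoter sequences are shown because these genes moved together. RefSeq promoters (GRCm38.p6, from 250 bases before to 50 after the start) were matched by symbol for 7 of the 10 genes. Gbp6, Gbp9 and Iigp1 had no entry. They were searched for the ISRE core GAAANNGAAA, or TTTCNNTTTC on the other strand, and for the GAS core TTCNNNGAA, which reads the same on both strands. An ISRE core was found in 6 of the 7 genes and a GAS core in 3 of the 7, which also held the ISRE core. Gbp3 has a second promoter entry, which held neither. Of all 32851 promoters in the table, 3.44% held the ISRE core, 8.30% the GAS core and 0.454% both. Of the 27025 genes they belong to, 3.99% held the ISRE core in at least 1 promoter, 9.55% the GAS core and 0.614% both. The Ifi47 promoter held neither, which says only that these letters are not in this window. In the windows below, written 5′ to 3′ in the direction of the gene, capitals mark the cores.
Gbp2 (chr3:142620592-142620625): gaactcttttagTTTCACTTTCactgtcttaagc
Gbp3 (chr3:142559987-142560026): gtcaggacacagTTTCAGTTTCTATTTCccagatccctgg
Gbp7 (chr3:142530218-142530304): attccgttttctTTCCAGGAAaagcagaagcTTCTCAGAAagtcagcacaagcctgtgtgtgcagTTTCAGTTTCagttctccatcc
Igtp (chr11:58199499-58199543): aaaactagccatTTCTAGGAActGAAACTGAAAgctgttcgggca
Irgm1 (chr11:48871423-48871462): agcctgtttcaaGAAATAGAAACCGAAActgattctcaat
Irgm2 (chr11:58214890-58214934): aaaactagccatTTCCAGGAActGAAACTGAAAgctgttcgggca
The capitals in Gbp3 and Irgm1 hold 2 overlapping ISRE cores each. Gbp7 holds 2 GAS cores, with first bases at -106 and -87 relative to the start, and an ISRE core at -53. In Igtp the GAS core begins at -45 and the ISRE core at -34, and in Irgm2 they begin at -75 and -64, with the same spacing. The 45-base windows of Igtp and Irgm2 had 1 difference, T16C (Igtp's base, the position from 1 at the 5′ end of the window, then Irgm2's base), in the middle of the GAS core. Of these 6 genes, Gbp3 and Gbp7 passed the threshold between PEA and CON.

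The genes that act upstream of the families were read from the same edgeR fit, in which 6.31% of all genes were called higher and 4.74% lower in PEA. Of 10 interferon genes Ifng and Ifnb1 were in the tables used here, both too low to be tested. Ifng had 3.06 to 7.86 normalized counts in CON and 0 to 3.03 in PEA, groups that did not overlap, with at most 8 estimated counts in any library. Ifnb1 had 0 to 4.72 in CON and 0 to 3.23 in PEA. None of the 8 receptor and kinase genes tested passed the threshold. The smallest p-values were those of Ifngr1, a chain of the interferon gamma receptor, with a log2 fold change of -0.16 (edgeR adjusted p = 0.0846), and Jak2, with 0.14 (edgeR adjusted p = 0.0643). Of the 8 transcription regulators reported, Stat2 and Irf1 rose. Stat2 went from 1110 ± 489 to 1966 ± 360 normalized counts (SD, n = 6 each), a log2 fold change of 0.83 ± 0.226 (SE, edgeR adjusted p = 0.0276). Irf1 went from 1105 ± 213 to 1464 ± 163, a log2 fold change of 0.41 ± 0.11 (SE, edgeR adjusted p = 0.0258).

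Irf9 stood at 0.48 (edgeR adjusted p = 0.0948) and Stat3 at 0.10 (edgeR adjusted p = 0.169). None of the 8 negative regulators was called. Socs1, an inhibitor of the JAK kinases, had a log2 fold change of 0.46 (edgeR adjusted p = 0.0644) and Socs3 of 0.25 (edgeR adjusted p = 0.131).

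**Figure D5:**
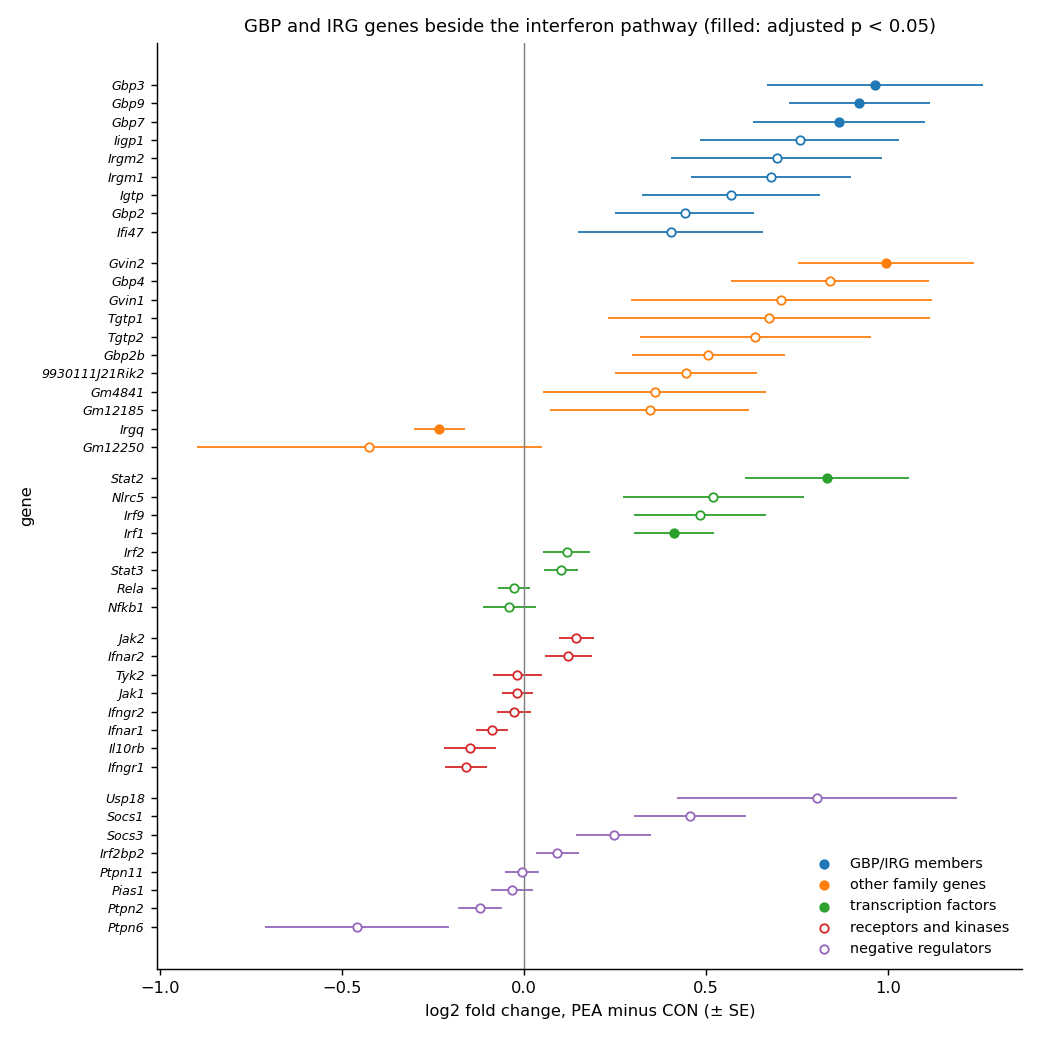
Log2 fold change, PEA minus CON, with its SE, by edgeR over all genes, for the GBP and IRG members and, from lists, other genes of the families, transcription regulators, receptors and kinases, and negative regulators of interferon signalling. Filled points have an adjusted p below 0.05: Gbp3, Gbp7, Gbp9, Gvin2, Irgq, Stat2 and Irf1.

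Of 29 other symbols of these GTPase families, 20 were in the annotation used here, 15 in the tables and 11 tested, with 9 higher and 2 lower in PEA and a median log2 fold change of 0.51. Of these 11, 1 was called higher and 1 lower, beside 6.31% and 4.74% of all genes, of which 51.3% were higher in PEA. Gvin2, a very large interferon-inducible GTPase, rose by 0.99 ± 0.242 (SE, edgeR adjusted p = 0.0166), from 801 ± 373 to 1591 ± 280 normalized counts (SD, n = 6 each). Irgq, a distant member of the IRG family, fell by 0.23 on the log2 scale (edgeR adjusted p = 0.0444), from 1039 ± 102 to 884 ± 72.9. The 9 others did not pass. Gbp4 had a log2 fold change of 0.84 (edgeR adjusted p = 0.0557), Gvin1 of 0.71 (0.285), Gbp2b of 0.51 (0.127), 9930111J21Rik2 of 0.44 (0.149), Gm4841 of 0.36 (0.487), Gm12185 of 0.34 (0.451) and Gm12250 of -0.43 (0.607), with the edgeR adjusted p in parentheses. Tgtp1 and Tgtp2, near-identical neighbours between which reads can be divided, stood at 0.67 (edgeR adjusted p = 0.351) and 0.64 (edgeR adjusted p = 0.205). In place of Gbp6 itself, the tables hold Gm43302, a read-through gene model that shares 1726 exon bases, 25.4% of the exons of Gbp6. The log2 fold change was 0.60 ± 0.263 (SE, edgeR adjusted p = 0.145), and its counts cannot be assigned to Gbp6.

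Genes whose products work with GBP and IRG proteins gave a mixed picture. The autophagy conjugation system, which directs IRG and GBP proteins to vacuoles, had 0 of 10 genes called higher and 2 called lower, beside the 4.74% of all genes called lower. Map1lc3a (LC3A) fell by 0.38 on the log2 scale (edgeR adjusted p = 0.00185), from 4083 ± 374 to 3136 ± 232 normalized counts (SD, n = 6 each), and Gabarap fell by 0.14 (edgeR adjusted p = 0.0312). Both had groups free of overlap, as did 1.81% of all genes in this direction. Gabarapl1 had 0.13 (edgeR adjusted p = 0.0965). Of 6 prenylation genes, which serve the lipid anchor of some GBPs, Fnta, the shared alpha subunit of the prenyltransferases, fell by 0.17 (edgeR adjusted p = 0.0267), and Icmt and Zmpste24 had log2 fold changes of 0.11 (edgeR adjusted p = 0.098) and -0.09 (edgeR adjusted p = 0.266).

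Of 8 genes for proteins that meet GBP or IRG coated vacuoles, 2 were called higher and 1 lower, against 6.31% and 4.74% of all genes. Lgals8 rose by 0.26 (edgeR adjusted p = 0.0204) and Pim1, a kinase that can phosphorylate GBPs, by 0.41 (edgeR adjusted p = 0.0301). Lgals3, which marks broken vacuoles, fell by 0.39 (edgeR adjusted p = 0.00881), from 25668 ± 4130 to 19577 ± 1331 normalized counts (SD, n = 6 each). None of 5 inflammasome genes tested was called, and the smallest p-values were those of Casp4, Gsdmd and Casp1, with log2 fold changes of 0.12, 0.17 and 0.11.

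Other interferon-stimulated genes varied with the members over the libraries. Among the genes reported here, the 10 most like the mean of the members (Pearson's r of log2 CPM centred within groups, over 12 libraries) were Ifit1, Oasl2, Ifit3, Usp18, Ifi44, Apol9a, Parp9, Apol9b, Oas1a and Irf7, at r between 0.992 and 0.997. Beyond the members, 169 genes had an r of at least 0.9. None of the 10 passed the threshold, and their log2 fold changes lay between 0.53 and 1.34. Of 29 antiviral genes tested, all 29 were higher in PEA, 7 were called and the median log2 fold change was 0.82, while 51.3% of all genes tested were higher in PEA and 6.31% were called so. The smallest p-values among them were those of Cmpk2, which rose by 1.04 (edgeR adjusted p = 0.0258), Rsad2 (viperin), which rose by 1.00 (edgeR adjusted p = 0.0282), and Eif2ak2 (PKR), which rose by 0.47 (edgeR adjusted p = 0.0285). Of 13 further genes that respond to interferon gamma, 5 were called higher, with a median log2 fold change of 0.57, against the same 6.31%. H2-K1 rose by 0.55 (edgeR adjusted p = 0.0282) and Tapbp by 0.57 (edgeR adjusted p = 0.0316), both of the class I antigen presentation pathway. Icam1 rose by 1.83 (edgeR adjusted p = 0.0353), at only 7.44 ± 7.50 and 29.8 ± 12.7 normalized counts (SD, n = 6 each).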

How the data were processed

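RNA-seq of 6 CON and 6 PEA libraries was used. PEA replicate 2 has 2 label entries, a run and a top-up, with 1 set of values, and was counted as 1 library. The authors used STAR for alignment to mm39 and Partek Flow for quantification to Ensembl genes. They deposited 1 table of the estimated count per gene, not normalized, and 1 of a signal, in which each library's counts are divided by its DESeq2 size factor. The deposited signal is called normalized counts here. Genes were matched to GENCODE symbols. Estimated counts were rounded and tested with edgeR 4.0.16 (quasi-likelihood, TMM, default low-count filter, 13142 genes, Benjamini-Hochberg, threshold 0.05) in R 4.3.3. The tests were tested on simulated data. Log2 CPM used a prior count of 2. Member ratios were compared by overlap between the groups in Python 3.11.15. TMM factors lay between 0.988 and 1.02.

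The members and all gene lists were chosen with earlier results of these data known. Named are all members, all tested genes of the families, called genes and those with an unadjusted p below 0.05 among receptors, kinases, regulators and inhibitors, the 3 genes with the smallest p-value in the other lists, and the 10 genes most like the members. 1 gene that these rules name is not reported here, and the next most like is given in its place. The 4 proliferation and myoblast markers, Acta1, Myh8, Tnnt3, Cd14 and Ptprc are named as markers, Gm43302 for its overlap with Gbp6. The alternatives were DESeq2 1.42.0, limma 3.58.1 (voom, and trend on normalized counts with a pseudocount of 1 or 10), median-ratio factors, no filter, at least 10 counts in every library, an adjusted p below 0.01, the replicate number as a block, and libraries left out. Promoter sequences are RefSeq's and coding sequences GENCODE's.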

Additional observations from a re-analysis of the deposited data

How the results depend on the processing

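All 9 members were higher in PEA in each of the 23 alternatives of the fit. Gbp9 was called in all of them, Gbp7 in 16 and Gbp3 in 13. The count of members called, 3 of 9, became 6 with limma-voom, 5 in limma-trend on normalized counts with a pseudocount of 1 and 5 with a pseudocount of 10, 1 at an adjusted p below 0.01, 9 without CON 1 and CON 2, and 7 without CON 2, CON 3 and CON 6. Of all genes, 7.39% were called higher with limma-voom, 6.70% and 6.79% in limma-trend, and 2.15% at 0.01. With DESeq2 it was 2, since Gbp3 lost its call (adjusted p = 0.07), while 7.48% of all genes were called higher. The count stayed at 3 with median-ratio factors, with no filter and with at least 10 counts in every library. In these settings 6.07%, 4.78% and 6.9% of all genes were called higher. With each library left out in turn it ranged from 1 to 9, the highest without CON 2. Genes called over all genes, 1452, became 405 at an adjusted p below 0.01, 841 without CON 3 and CON 6, and 2210 without CON 1 and CON 2. They ranged from 778 without PEA 6 to 2203 without CON 2. The mean member difference of 0.84 ranged from 0.64 to 1.03 with each library left out, and was 0.39 without CON 3 and CON 6, 1.13 without CON 1 and CON 2, and 0.56 without CON 2, CON 3 and CON 6. The 7 member pairs free of overlap ranged from 7 to 12 with each library left out, while the share of all pairs ranged from 4.46% to 8.91%. The cause of these shifts was not tested.

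The correlation of same-numbered libraries' deviations lay between -0.08 and 0.07, so no pairing by replicate number was seen over all genes. Every member had a smaller SE with the replicate number as a block than without it, such as 0.124 against 0.191 for Gbp2. Whether same-numbered libraries share a repeat of the experiment is not in the labels and was not tested. With the replicate block, 8 of 9 members and 1570 genes were called, 7.18% of all genes higher. The spread between libraries, their number and counting error limit the precision of all values.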
